A study of Mus musculus with 12 samples.

Results

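The aminoacyl-tRNA synthetase genes described here are 36 symbols taken from the deposited FPKM table of 24327 genes, all of which were found. They fall into 20 symbols without the suffix 2, which encode the cytosolic enzymes, and 16 symbols with the suffix 2, which encode mitochondrial enzymes. RNA came from the lateral ventricle choroid plexus (LV ChP) of male FoxJ1:cre x bacTRAP (EGFP:L10a) mice, labelled as 60 days of age at harvest and given as 8 weeks in the methods. FoxJ1:cre acts in ciliated epithelium, where the recombined allele makes EGFP-tagged RPL10A, a ribosomal protein, and all 4 groups carried both alleles without any drug treatment. Tissue was taken at 9 a.m., when lights had been on for 2 h, or at 9 p.m., in the dark for the same length of time. The RNA associated with RPL10A was pulled down (TRAP) and the RNA that stayed unbound was kept as the supernatant. Each of the 4 groups held 3 libraries, and each library came from LV ChP pooled from 3 mice. Cre-negative mice were not analysed here, so the background of the pull-down is not subtracted from any value.

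Aminoacyl-tRNA synthetases join each amino acid to its tRNA and so supply the ribosome with its substrates. The cytosolic enzymes serve translation of nuclear mRNAs, several of them held together in a multisynthetase complex, while a separate nuclear-encoded set serves the small translation system of mitochondria. The choroid plexus epithelium secretes large amounts of protein, transthyretin above all, into the cerebrospinal fluid, and transcription of many cytosolic synthetase genes is known to be raised by ATF4 when amino acids run short.

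FPKM, the unit of all levels below, relates the reads of a gene to its length and to all reads mapped in the library, so that levels of different genes can be compared per length. Read depth per library is unknown. All 12 epithelial markers, Ttr among them, were above an FPKM of 1 in every TRAP library, with a summed level of 39314 to 54233 at 9 a.m. and 55128 to 73011 at 9 p.m. The sum of 6 stromal markers was 10.4 to 31.1 FPKM in TRAP at 9 a.m., 3.20 to 7.64 in TRAP at 9 p.m. and 69.9 to 300.2 in the supernatant, and no stromal marker was above 1 in all 6 TRAP libraries. The 9 a.m. TRAP replicate 3 stood apart. It held 6639 genes above 1, against up to 10540 elsewhere, and listed 107 of 2940 abundant genes (median above 20) at 0, or 3.64%. Its 6 hepatocyte markers summed to 674 FPKM, against 0.636 to 134 in the other libraries, and its 5 neural markers to 76.2, against 3.30 to 17.0 in the other TRAP libraries. In that library 11 of the 36 synthetase genes were listed at 0, more than in any other, and 20 were above 1. Counts and medians of tested members that use it are therefore given with and without it, and the part of these features in the results was not tested.

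Transcripts of the cytosolic enzymes were the more abundant set. The mean over 12 libraries had a median of 22.8 FPKM over the 20 cytosolic genes, with a range from 9.46 for Cars to 80.4 for Gars. Over the 16 mitochondrial genes the median was 4.21, with a range from 0.524 for Sars2 to 372 for Lars2. Where a mitochondrial enzyme was set beside the cytosolic enzyme for the same amino acid, the cytosolic mean was higher in 13 of 16 pairs. Eprs was the partner of both Ears2 and Pars2, and Fars2 was set beside the mean of Farsa and Farsb. The exceptions were the cysteine, phenylalanine and leucine pairs. For cysteine the exception rested on 1 library: Cars2 read 77.1 FPKM in 9 a.m. supernatant replicate 1 against a mean of 10.6, and Cars was the higher of the pair in 8 of 12 libraries. Among the 13, the isoleucine pair was close, at 12.06 FPKM for Iars and 11.89 for Iars2, with Iars higher in 7 of 12 libraries.

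**Figure D1:**
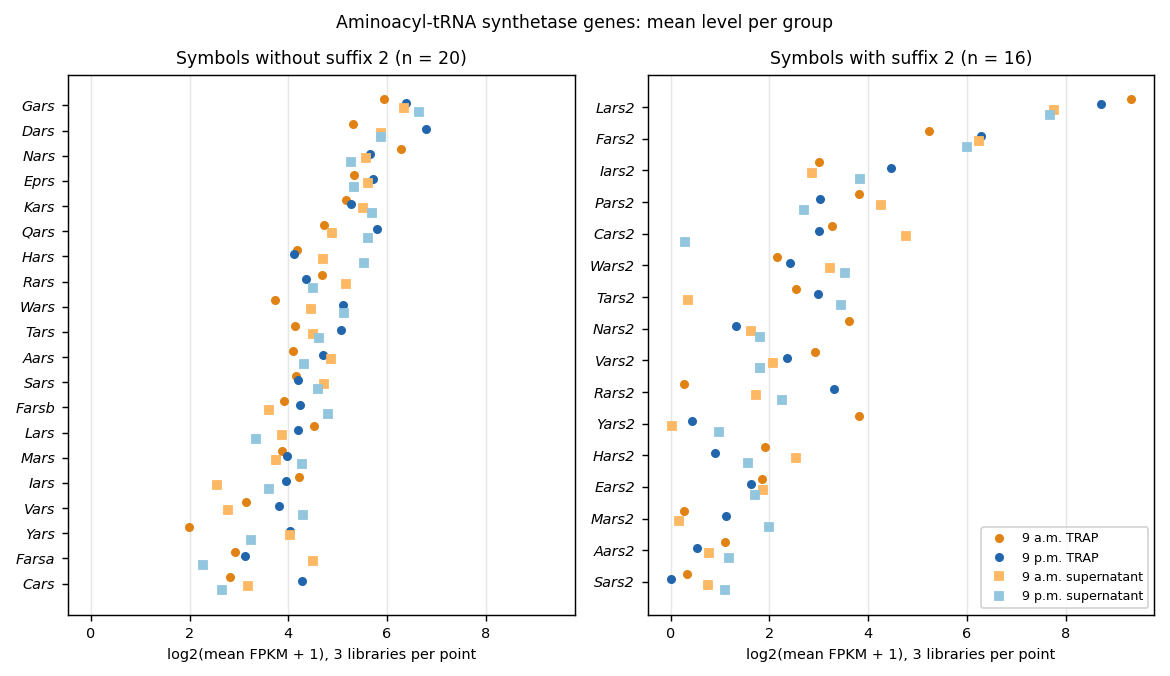
Mean level of each synthetase gene in each of the 4 groups, as log2(mean FPKM + 1) on the horizontal axis, with genes ordered by their mean over 12 libraries. Each point is the mean of 3 libraries, circles for TRAP and squares for supernatant. Most genes without the suffix 2 lie to the right of those with it, and Lars2 lies to the right of every other gene.

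Gars, the glycyl-tRNA synthetase, and Kars, the lysyl-tRNA synthetase, each serve cytosol and mitochondria from 1 gene. Gars had the highest mean among the cytosolic genes, 80.4 ± 26.2 FPKM (SD, n = 12), from 31.2 in 9 a.m. TRAP replicate 3 to 110 in 9 p.m. TRAP replicate 2. Kars was lower, at 42.0 ± 13.7 FPKM (SD, n = 12). It read 41.5, 35.7 and 27.1 in TRAP at 9 a.m., 22.6, 53.4 and 36.5 in TRAP at 9 p.m., 65.3, 33.8 and 35.3 in the 9 a.m. supernatant and 54.6, 35.8 and 62.6 in the 9 p.m. supernatant, and all 4 groups overlapped. Dars, the aspartyl-tRNA synthetase, had the next mean after Gars at 66.2 ± 34.6 FPKM (SD, n = 12). Eprs encodes 1 chain that charges tRNAs for both glutamate and proline, and stood at 44.6 ± 17.3 FPKM (SD, n = 12), while the separate mitochondrial enzymes for these amino acids, Ears2 and Pars2, had means of 2.39 and 10.96 FPKM. In the same order of groups Eprs read 53.1, 40.5 and 24.9, then 55.5, 58.3 and 40.8, then 13.5, 59.1 and 72.4, and then 50.7, 22.4 and 44.2 FPKM, again with overlap among all groups. At the low end of the cytosolic set were Cars, the cysteinyl enzyme, with 9.46 ± 10.6 FPKM (SD, n = 12), and Farsa with 9.94 ± 11.7 FPKM (SD, n = 12). Cars read 2.03, 15.99 and 0.118 FPKM in TRAP at 9 a.m. and 39.3, 11.7 and 4.12 in TRAP at 9 p.m., with 4.69, 12.5 and 7.13 and then 8.91, 1.56 and 5.45 in the supernatant. Its highest value came from 1 evening TRAP library, and its groups overlapped. Farsa and Farsb encode the catalytic and the regulatory subunit of 1 cytosolic phenylalanyl-tRNA synthetase. Farsb had a mean of 17.5 ± 14.0 FPKM (SD, n = 12). The SD over libraries was thus above the mean for Farsa and below it for Farsb. In TRAP, Farsa read 9.73, 9.84 and 0 FPKM at 9 a.m. and 15.8, 7.20 and 0.326 at 9 p.m. The values of Farsb there were 5.001, 37.4 and 0 and then 20.4, 30.6 and 2.42, so both subunits had their lowest TRAP value of each time in replicate 3.

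Among the mitochondrial genes, Lars2 (leucyl) and Fars2 (phenylalanyl) were far above the rest, at 372 ± 225 and 63.0 ± 39.9 FPKM (SD, n = 12). Without Lars2 the median of the remaining 15 mitochondrial genes was 4.08 FPKM. The lowest were Aars2, the alanyl enzyme, with 0.885 FPKM, and Sars2, the seryl enzyme, with 0.524 FPKM. In the order of means over all 36 genes, 34 of 35 neighbouring pairs had overlapping library ranges, and a gap smaller than the larger of their SDs. The one exception was Lars2 and Gars: the lowest Lars2 library, at 120.0 FPKM, lay above the highest Gars library.

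Low transcripts were often listed at exactly 0, which in a table without counts can also be a failed estimate. Of the cytosolic genes, 15 of 20 were never at 0. Of the mitochondrial genes this held for 3 of 16, namely Lars2, Fars2 and Vars2. Yars2 was at 0 in 8 libraries, Sars2 in 7 and Mars2 and Aars2 in 6 each. Aars2 was listed at 3.41, 0 and 0 FPKM in TRAP at 9 a.m., at 0, 1.36 and 0 in TRAP at 9 p.m., and at 1.36, 0 and 0.737 and then 1.29, 0 and 2.47 in the supernatant. Sars2 was listed at 0, 0.396 and 0.382 FPKM and then at 0 throughout in TRAP, with 0, 0 and 2.07 and then 0.553, 0 and 2.89 in the supernatant. Each group of either gene thus held a library at 0. Mars2, the methionyl enzyme, was listed at 0, 0.589 and 0 FPKM in TRAP at 9 a.m., at 0, 3.50 and 0 at 9 p.m., at 0.355, 0 and 0.0346 in the 9 a.m. supernatant, and at 4.48, 0 and 4.42 in the 9 p.m. supernatant. Pars2, the prolyl enzyme, was at 0, 2.56 and 36.9 FPKM in TRAP at 9 a.m. and at 1.501, 8.10 and 11.8 later in the day, with 31.7, 21.2 and 1.37 and then 10.4, 1.42 and 4.599 in the supernatant. All 4 groups of Pars2 overlapped. A single library likewise held the highest value of Yars2, at 39.4 FPKM, and of Nars2, at 31.8, in both cases 9 a.m. TRAP replicate 3.

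Which class had the higher sum depended on Lars2. Summed over the 20 cytosolic genes, FPKM was 471 ± 124 in TRAP at 9 a.m., 648 ± 13.2 in TRAP at 9 p.m., 556 ± 22.2 in the 9 a.m. supernatant and 602 ± 24.2 in the 9 p.m. supernatant (SD, n = 3 each). The 9 a.m. TRAP libraries read 464, 598 and 351 FPKM (replicates 1 to 3), and the 9 p.m. TRAP libraries 641, 664 and 640.1. In FPKM as listed the groups thus did not overlap, with or without 9 a.m. replicate 3. The sums were not taken relative to the protein-coding total of each library, so this holds for FPKM only. The sum over all protein-coding genes also differed among these libraries. It was 253482, 328904 and 299681 FPKM in TRAP at 9 a.m. and 360309, 378353 and 303966 at 9 p.m. (replicates 1 to 3). Rows of microRNA genes held 31.9% to 75.4% of the summed FPKM of a library. The part of these totals in the cytosolic sums was not tested. The mitochondrial sum was 757 ± 229 and 564 ± 126 FPKM in morning and evening TRAP, and 367 ± 37.8 and 327 ± 35.8 in morning and evening supernatant (SD, n = 3 each). It exceeded the cytosolic sum in every 9 a.m. TRAP library and in replicate 1 of the 9 p.m. TRAP group, and was below it elsewhere. Without Lars2, the mitochondrial sum was 112 ± 14.3 and 143 ± 24.7 FPKM in morning and evening TRAP, and 151 ± 99.1 and 122 ± 64.5 in morning and evening supernatant (SD, n = 3 each). In every library the cytosolic sum exceeded this mitochondrial sum, by 2.14 to 12.5 times.

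Exons of 13 of the 36 genes overlap another gene in the GENCODE annotation of the mm10 assembly, mostly one on the opposite strand. No source used here states whether reads were assigned by strand. If strand was not used, reads from the shared bases cannot be assigned to one of the neighbours. Hars and Hars2, the cytosolic and mitochondrial histidyl enzymes, are such a pair, with starts that overlap head to head over 195 bases, or 9.80% of the Hars transcript. Others were Iars2 with Rab3gap2 (2034 shared bases, 37.2% of its transcript), Mars with Ddit3 (67 shared bases, 2.26%) and Fars2 with Lyrm4 (115 shared bases, 5.41%). Over all annotated exons of Fars2, 616 of 5747 bases overlapped Lyrm4 or Nrn1, both on the opposite strand. Of the other genes the time comparison turned on, Dars, Qars, Wars and Rars2 had no overlapping exon, and Yars shared 30 exonic bases with C77080 on the opposite strand. None of these 5 had a shared stretch of 50 bases or more.

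Because ATF4 is known to act on cytosolic synthetase promoters, the 250 bases upstream of the start were searched for TGATGNAA, the core of the C/EBP-ATF response element, on both strands. RefSeq windows (GRCm38.p6) were searched for 25 of the 36 genes. The letters were found in Gars and Tars, or 8% of the genes searched, against 3.90% of 27024 genes with a window. A match is a description of these letters only. Both sites are printed because they can be read beside the values of their genes, 5′ to 3′ on the strand of the gene, with the motif, here as its reverse complement, in capitals.
Gars: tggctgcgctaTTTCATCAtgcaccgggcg
Tars: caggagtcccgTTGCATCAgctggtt
The Gars site lies at chr6:55037960-55037989 on the plus strand and the Tars site at chr15:11399659-11399684 on the minus strand. The motif starts 30 and 15 bases upstream of the start, respectively. Of these genes, Tars had the lowest value in the 9 a.m. TRAP libraries, with 29.1, 20.8 and 0.134 FPKM. A second motif, the E-box CACGTG to which clock transcription factors bind, was searched after the values had been seen, and was found in Farsb and Iars (8%, against 6.86% of all genes).

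The first comparison asked whether RPL10A-associated synthetase transcripts differed between 9 p.m. and 9 a.m. More members were higher at 9 p.m. than lower, but none passed the test. After the filter on low values (mean FPKM above 1 over the libraries compared), 33 of 36 were tested, all but Aars2, Mars2 and Sars2. Of these, 24 had higher and 9 lower mean log2 values at 9 p.m. (72.7% higher, where 56.9% of all 10563 genes tested were higher), and the median log2 fold change was 0.42, against 0.16 over all genes tested. For cytosolic genes 16 of 20 were higher (median 0.55), and for mitochondrial genes 8 of 13 (median 0.39). By limma with Benjamini-Hochberg adjustment, 0 genes of 10563 were called (0%), and 418 (3.96%) had an unadjusted p under 0.05. The lowest adjusted p of a member was 0.941.

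The direction count rested on 1 library. Without 9 a.m. TRAP replicate 3, 16 members were higher and 16 lower of 32 tested, and the median was 0.063, against 0.016 over all genes. For cytosolic genes 10 of 20 were then higher (median 0.063), and for mitochondrial genes 6 of 12 (median 0.045). The balance also moved with the scaling, from 24 and 9 to 20 and 13 after quantile normalization, where the median was 0.27 against -0.025 over all genes, and to 22 and 11 after rescaling to equal sums over protein-coding genes, where it was 0.24 against -0.040. Marker sums moved between the same libraries. The stromal sum was lower at 9 p.m. without overlap, with the values above, while the endothelial, macrophage, neural, erythroid and hepatocyte sums overlapped. The epithelial sum was higher in each 9 p.m. TRAP library than in any 9 a.m. TRAP library, but Ttr was its largest term. Ttr read 20922, 31302 and 29741 FPKM at 9 a.m. and 51514, 48953 and 32933 at 9 p.m. Foxj1 was also higher without overlap. Kl was lower without overlap (628, 531 and 503 against 429, 411 and 467 FPKM), and the other epithelial markers overlapped. The part of these marker values in the direction of the members was not tested. In bulk RNA, fewer cells of a type and less RNA per cell cannot be told apart.

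An unadjusted p under 0.05 was reached by 6 members, all higher at 9 p.m. (18.2% of those tested, where 2.95% of all genes tested were higher with such a p). They were Dars, Qars, Wars and Yars of the cytosolic set, and Rars2 and Fars2 of the mitochondrial set. Dars, a subunit of the multisynthetase complex, read 23.9, 69.3 and 23.6 FPKM in TRAP at 9 a.m. (replicates 1 to 3) and 138, 65.6 and 126 at 9 p.m. One 9 a.m. library lay within the 9 p.m. range, so the groups overlapped. The log2 fold change of Dars was 1.59 ± 0.52 (SE), and its p-value ranked at position 63 of 10563 genes. Each of the 6 had an adjusted p of 0.941.

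Qars, the glutaminyl-tRNA synthetase of the same complex, read 35.8, 27.7 and 12.5 FPKM at 9 a.m. and 69.7, 42.7 and 52.6 at 9 p.m., with all 9 p.m. libraries above all 9 a.m. libraries. Its log2 fold change was 1.18 ± 0.52 (SE). Wars, the tryptophanyl enzyme, read 6.38, 17.3 and 13.4 FPKM at 9 a.m. and 42.0, 31.7 and 26.5 at 9 p.m., again without overlap, for a log2 fold change of 1.44 ± 0.61 (SE). In Yars, the tyrosyl enzyme, the values were 3.06, 4.81 and 1.10 FPKM at 9 a.m. and 11.6, 13.8 and 20.6 at 9 p.m., without overlap, and the log2 fold change was 2.12 ± 0.92 (SE).

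Rars2, the mitochondrial arginyl-tRNA synthetase, was listed at 0, 0.610 and 0 FPKM in TRAP at 9 a.m., and read 7.39, 13.3 and 6.13 at 9 p.m. The groups did not overlap, and the log2 fold change was 3.02 ± 1.05 (SE). Its cytosolic partner Rars had overlapping groups, with 19.2, 43.3 and 11.3 FPKM at 9 a.m. and 5.70, 28.3 and 24.8 at 9 p.m. Fars2 read 15.6, 93.55 and 0.616 FPKM at 9 a.m. and 93.7, 82.0 and 56.7 at 9 p.m., so that 1 of the 9 a.m. libraries reached the highest 9 p.m. values. Its log2 fold change was 2.49 ± 1.12 (SE), and 0.95 once replicate 3 of the 9 a.m. TRAP group was left out.

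Groups did not overlap for 5 of the 33 members, all higher at 9 p.m. (15.2%, where 5.70% of all genes tested were higher without overlap). They were Qars, Wars, Yars, Rars2 and Iars2, the mitochondrial isoleucyl enzyme, which read 10.5, 10.6 and 0 FPKM at 9 a.m. and 25.4, 16.4 and 21.0 at 9 p.m. Without 9 a.m. TRAP replicate 3 the same 5 members were higher without overlap, of 32 tested (15.6%, where 8.497% of all genes were). Vars2 was lower without overlap, as were 897 of all 10568 genes. In either direction this made 18.75% of members, beside 17.0% of all genes. In that fit Dars (log2 fold change 1.34), Rars2 (2.90) and Wars (1.54) kept an unadjusted p under 0.05, while Yars (1.72), Qars (0.76) and Fars2 no longer did. Of all 10568 genes tested there, 232 were higher with such a p. Between 1 and 6 members had such a p when each TRAP library was left out in turn, and shares over all genes were not computed for the other libraries. Leaving out replicate 2 of the 9 p.m. TRAP group left 1 such member, and leaving out its replicate 1 or 3 left 2.

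**Figure D2:**
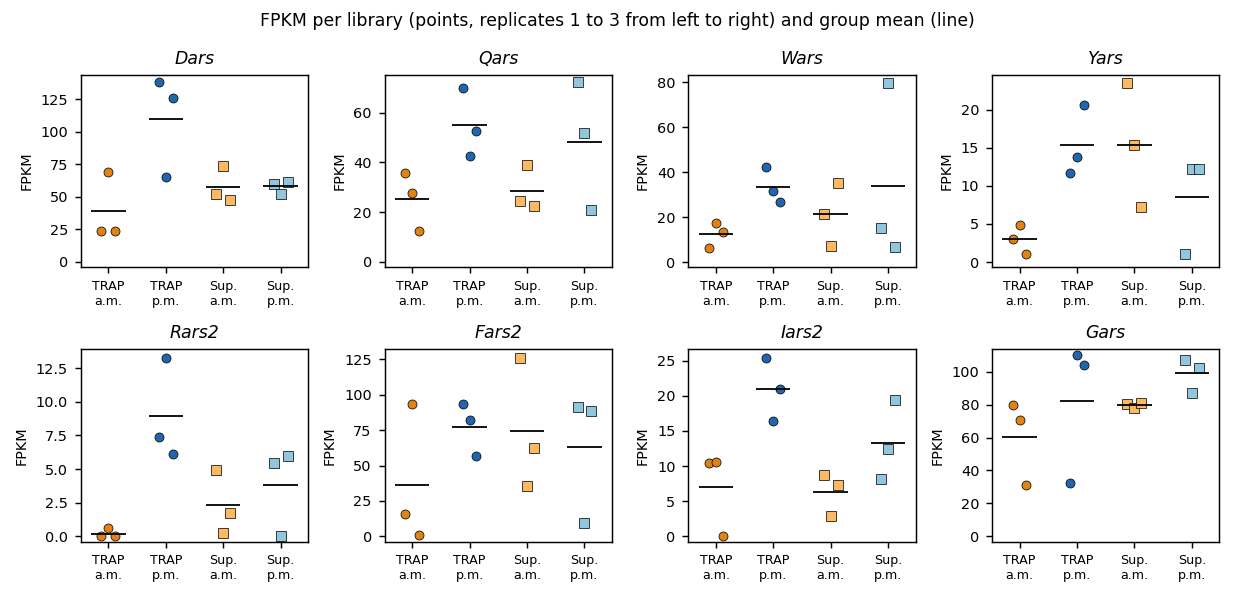
FPKM of 8 synthetase genes in each of the 12 libraries, on linear axes with a separate scale per gene. Points are libraries, with replicates 1 to 3 from left to right in each group, and lines are the means of 3 libraries. All 9 p.m. TRAP points of Qars, Wars, Yars, Rars2 and Iars2 lie above the 9 a.m. TRAP points, while in Dars, Fars2 and Gars the groups overlap.

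In the supernatant the same contrast gave no common direction. Of 33 members tested (Aars2, Sars2 and Yars2 were not), 19 were higher and 14 lower at 9 p.m. (51.8% of all genes were higher), and the median log2 fold change was 0.054, against 0.033 over 11075 genes. No member was called, and 1 gene in all was (0.00903%). Tars2, the mitochondrial threonyl enzyme, was the only member with an unadjusted p under 0.05 (3.03%, where 1.79% of all genes tested were higher with such a p). It read 0.0768, 0 and 0.720 FPKM at 9 a.m. and 18.3, 7.62 and 3.96 at 9 p.m., which is 2.93 ± 1.11 on the log2 scale (SE; limma adjusted p = 0.970). In TRAP the same gene had overlapping groups, at 8.17, 2.02 and 4.12 FPKM and then 10.8, 3.01 and 6.94.

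The subunits of the cytosolic phenylalanyl enzyme had the next lowest p-values, with opposite signs. Farsa read 43.9, 12.6 and 8.39 FPKM in the 9 a.m. supernatant and 4.56, 3.78 and 3.22 at 9 p.m., without overlap (log2 fold change -1.89 ± 0.88, SE; limma adjusted p = 0.970). Farsb read 5.78, 0 and 27.9 FPKM and then 26.0, 33.5 and 20.8, with overlap (log2 fold change 2.23 ± 1.07, SE; limma adjusted p = 0.970). Neither passed the threshold. Besides Tars2 and Farsa, the supernatant groups did not overlap for Gars, which was higher at 9 p.m. (80.6, 77.7 and 81.1 against 107, 87.1 and 102 FPKM), and Rars, which was lower (27.4, 45.8 and 32.1 against 26.8, 14.9 and 23.6 FPKM). That makes 4 of 33 members without overlap (12.1%), beside 8.70% of all genes tested. In TRAP, Gars overlapped between times, at 79.9, 70.7 and 31.2 FPKM and then 32.3, 110 and 104.

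**Figure D3:**
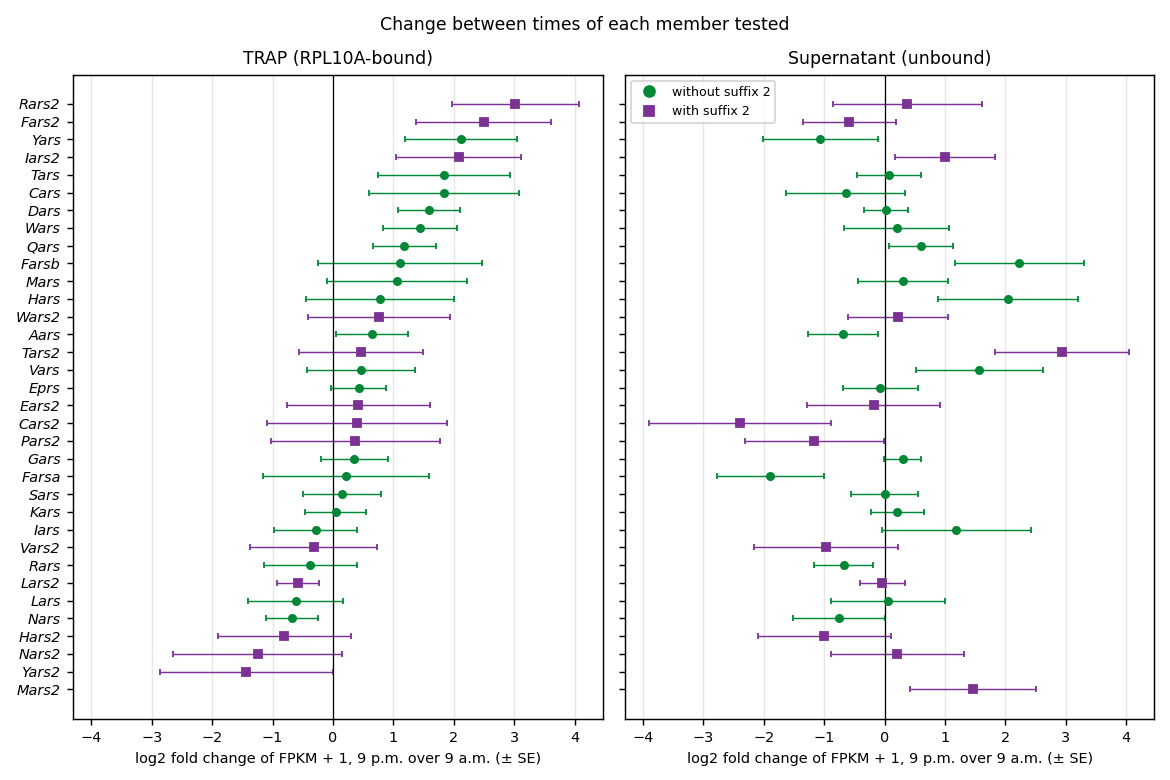
Log2 fold change of FPKM + 1 at 9 p.m. over 9 a.m., with its standard error, for each member tested in TRAP (left) and supernatant (right). Genes are in the order of the TRAP value, and colour and shape mark the suffix 2. In TRAP 24 of 33 points lie to the right of 0 and in the supernatant 19 of 33, and no member passed the adjusted threshold in either.

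Whether the change between times differed between the fractions was tested with an interaction term over all 12 libraries, which reuses the libraries above. No member was called among 34 tested (1 gene of 11156, or 0.00896%, was), and the lowest adjusted p of a member was 0.988. The difference was positive, meaning a larger 9 p.m. over 9 a.m. ratio in TRAP, for 23 members and negative for 11 (53.8% of all genes were positive), with a median of 0.52 on the log2 scale, against 0.11 over all genes. Without 9 a.m. TRAP replicate 3 the median was 0.011, against -0.025 over all genes, with 17 positive and 16 negative (49.2% of all genes were positive). Yars was then the one member of 33 with an unadjusted p under 0.05 (213 of 11172 genes had such a p with a positive difference). Over all 12 libraries Yars had a difference of 3.18 ± 1.23 (SE). Its supernatant libraries read 23.5, 15.3 and 7.22 FPKM at 9 a.m. and 1.06, 12.2 and 12.2 at 9 p.m., overlapping. Dars had a difference of 1.56 ± 0.65 (SE), with a supernatant that read 52.5, 73.7 and 47.3 FPKM and then 60.0, 52.6 and 61.6. These were the 2 members with an unadjusted p under 0.05 (5.88%, where 2.64% of all genes had such a p with a positive difference). Fars2 came next, with a difference of 3.08 ± 1.62 (SE), and supernatant values of 126, 35.6 and 62.2 FPKM at 9 a.m. and 91.5, 9.51 and 88.8 at 9 p.m.

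The remaining comparisons set RPL10A-associated against unbound RNA. At 9 a.m., 10 of 33 members tested were higher in TRAP and 23 lower (41.8% of 10796 genes were higher), and the median log2 fold change was -0.55, against -0.20 over all genes. No member was called (5 genes, or 0.0463%, were). Without 9 a.m. TRAP replicate 3, 16 members were higher and 17 lower (47.8% of all genes were higher), and the median was -0.085, against -0.052 over all genes. At 9 p.m., with other libraries, 19 members were higher in TRAP and 14 lower (47.3% of all genes were higher), with a median of 0.32, against -0.069 over 10924 genes. No member was called there either (3 genes, or 0.0275%, were), and the median was -0.053 without 9 p.m. supernatant replicate 2. Stromal sums were lower in TRAP at both times without overlap. At 9 p.m. this also held for the endothelial, macrophage, neural and erythroid sums. The epithelial sum was higher in TRAP at 9 p.m., also without overlap, as were Ttr, its largest term, and Foxj1. Kl was lower in TRAP at 9 p.m. without overlap, and the other epithelial markers overlapped. The part of these cells in the fraction differences was not tested.

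Lars2, the mitochondrial leucyl-tRNA synthetase, had the lowest p of all members in both comparisons and no overlap in either. Its TRAP libraries read 924, 476 and 535 FPKM at 9 a.m. and 553, 351 and 359 at 9 p.m. Its supernatant libraries read 120.0, 241 and 288 FPKM at 9 a.m. and 142, 275 and 199 at 9 p.m. All 6 TRAP libraries thus lay above all 6 supernatant libraries. The log2 fold change of TRAP over supernatant was 1.60 ± 0.38 at 9 a.m. (SE; limma adjusted p = 0.528) and 1.05 ± 0.33 at 9 p.m. (SE; limma adjusted p = 0.818). Between times Lars2 overlapped, in TRAP and in the supernatant.

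Other members with an unadjusted p under 0.05 appeared at 9 p.m. alone, and whether they differed from 9 a.m. is what the interaction above tested. Hars, the cytosolic histidyl enzyme, read 6.89, 26.4 and 15.4 FPKM in 9 p.m. TRAP against 34.15, 63.1 and 38.6 in the supernatant, without overlap (log2 fold change -1.55 ± 0.57, SE; limma adjusted p = 0.818). At 9 a.m. it read 23.4, 27.5 and 0 FPKM in TRAP against 53.6, 0 and 22.1. Dars was higher in TRAP at 9 p.m., without overlap, for a log2 fold change of 0.84 ± 0.38 (SE; limma adjusted p = 0.818). With Lars2 this made 2 of 33 members higher (6.06%) and 1 lower (3.03%) at such a p, beside 3.15% and 2.53% of all genes. Rars2 also did not overlap at 9 p.m., with TRAP above supernatant values of 5.43, 0 and 5.97 FPKM. At 9 p.m. the groups therefore did not overlap for 3 members that were higher in TRAP, Lars2, Dars and Rars2, and 1 that was lower, Hars, together 12.1%, beside 11.9% of all genes.

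At 9 a.m. the members of next lowest p were Fars2 and Yars, both lower in TRAP. Fars2 had a log2 fold change of -2.28 ± 1.13 (SE; limma adjusted p = 0.886), which became -0.75 when replicate 3 of the 9 a.m. TRAP group was left out. Yars had -2.02 ± 1.005 (SE; limma adjusted p = 0.886), without overlap. The other members without overlap at 9 a.m. were higher in TRAP: Lars2, Iars, the cytosolic isoleucyl enzyme, and Tars2. Iars read 11.5, 15.96 and 25.3 FPKM in TRAP against 0, 6.37 and 8.18. These 4 of 33 members (12.1%) stand beside 10.1% of all genes without overlap. Without 9 a.m. TRAP replicate 3 there were 6 (18.2%, where 18.5% of all genes did not overlap). Lars2 alone was higher at an unadjusted p under 0.05 (3.03%, against 1.61% of all genes).

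**Figure D4:**
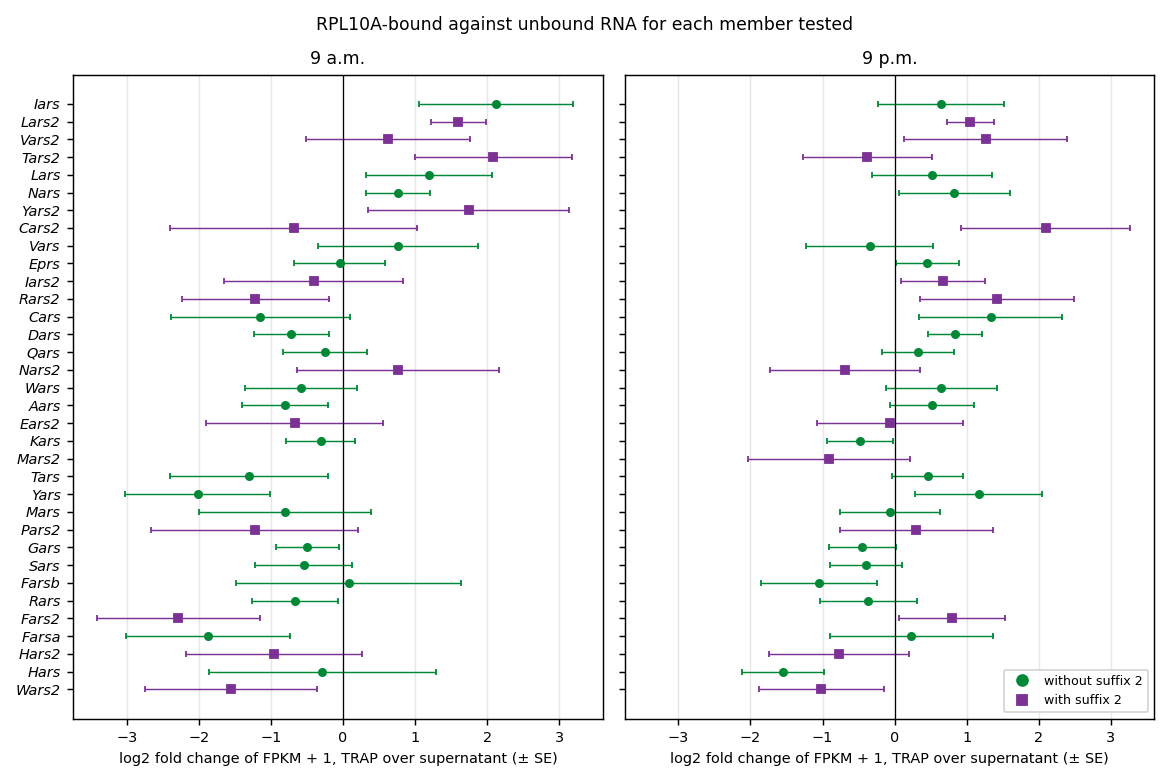
Log2 fold change of FPKM + 1 in TRAP over supernatant, with its standard error, for each member tested at 9 a.m. (left) and 9 p.m. (right), in the order of the value over both times. Colour and shape mark the suffix 2. Lars2 has a narrow error and lies to the right of 0 at both times (1.60 and 1.05), while 10 of 33 members lie to the right at 9 a.m. and 19 of 33 at 9 p.m.

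Over both times, with time of day as a term, 34 members were tested, 17 higher in TRAP and 17 lower (43.2% of all genes were higher), and the median log2 fold change was -0.056, against -0.13 over 11156 genes. Without 9 a.m. TRAP replicate 3 the median was 0.055, against -0.043 over all genes, with 20 higher and 13 lower (47.6% of all genes were higher). Across all genes 12 were called (0.108%), 2 of them higher in TRAP (0.0179%), and 6 when the libraries that share an animal number and a time were taken as blocks. No synthetase gene was among them. Lars2 came nearest, with a log2 fold change of 1.33 ± 0.27 (SE; limma adjusted p = 0.0890, from 0.0510 to 0.477 over 20 alternative fits, and 0.461 with the block). At an unadjusted p under 0.05 it stood alone (2.94% of members, against 2.75% of all genes higher with such a p). It was also the single member whose 6 TRAP libraries did not overlap with the 6 supernatant libraries, a property of 0.233% of all genes tested with higher TRAP values. Iars, which overlapped at 9 p.m. (8.11, 21.6 and 13.8 FPKM in TRAP against 1.77, 17.5 and 14.5), followed with 1.38 ± 0.69 (SE; limma adjusted p = 0.660) and Wars2, the mitochondrial tryptophanyl enzyme, with -1.28 ± 0.64 (SE; limma adjusted p = 0.660). Wars2 read 8.29, 2.13 and 0 FPKM and 2.66, 4.87 and 5.57 in TRAP, and 5.225, 10.5 and 9.22 and 4.87, 10.5 and 16.2 in the supernatant, with overlap.

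The Lars2 value is unlike that of the other mitochondrial synthetases in further ways. It made up 31.2% to 90.6% of the summed FPKM of the 16 mitochondrial genes in a library, and ranked between 11 and 443 among all genes. Of 11155 genes compared, the gene whose log2 values over the 12 libraries were most like those of Lars2 was Mir6236 (Pearson's r = 0.834, Spearman's rho = 0.92). Snrnp200 (r = 0.830), Rab1 (0.821), Zfp36l1 (0.816) and Zfp169 (0.813) followed closely. This is a description over libraries that share fractions and composition. For Lars2 and Mir6236, r was 0.79 within the 6 TRAP libraries and 0.36 within the 6 supernatant libraries. The ratio of TRAP to supernatant means was, at 9 a.m. and then 9 p.m., 2.98 and 2.05 for Lars2, and 2.19 and 2.32 for Mir6236. Mir6236 is no typical transcript of this table, with 84777 to 541166 FPKM per library.

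The sequence of Lars2 also holds a stretch that is found elsewhere. In the longest annotated protein-coding transcript (3894 bases), bases 3278 to 3349, at chr9:123462048-123462119 on the plus strand of mm10 in the 3′ UTR of the last exon, were 98.6% identical over 72 bases to Gm15564, an antisense RNA gene on chromosome 16. Reads of 50 nt can fit within such a stretch. Of the 12 synthetase genes with a stretch of at least 50 bases and 98% identity in another gene, Lars2 was the only one whose match lay at another locus, and the other 11 shared bases with overlapping neighbours. Gm15564 was not analysed here. The part of shared sequence, and of whatever moves with Mir6236, in the Lars2 value was not tested.

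**Figure D5:**
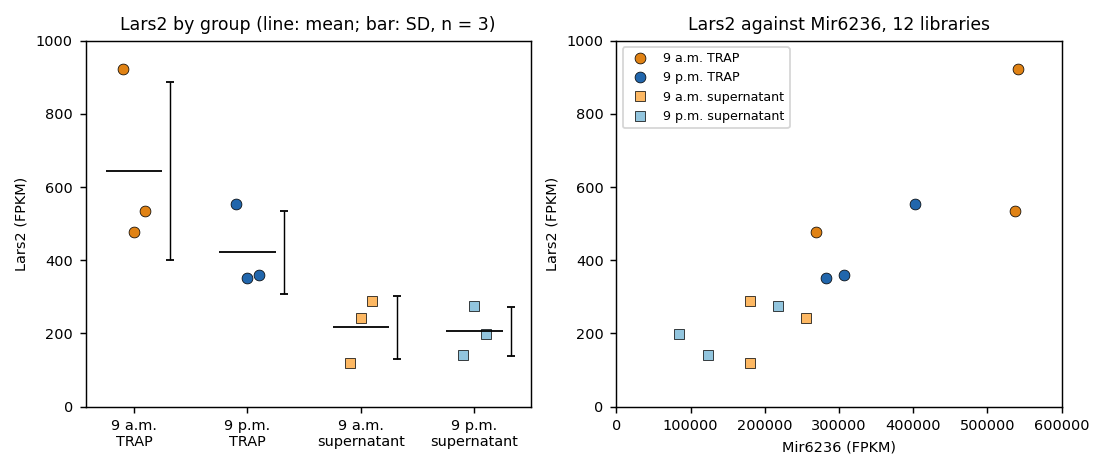
Left, Lars2 FPKM in each library by group, with the mean (line) and SD (bar, n = 3). Right, Lars2 FPKM against Mir6236 FPKM over 12 libraries, on linear axes. The 6 TRAP libraries (351 to 924 FPKM) lie above the 6 supernatant libraries (120.0 to 288 FPKM), and the TRAP libraries also hold the highest Mir6236 values.

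Genes that work beside the synthetases were read from a list of 47 genes, all in the table: further synthetases, scaffolds of the multisynthetase complex, tRNA editing and processing enzymes, elongation factors, and genes of the amino acid stress response. None was called in any comparison. For TRAP at 9 p.m. against 9 a.m., 28 of 41 tested were higher and 13 lower (median log2 fold change 0.41), close to that of the synthetases. Without 9 a.m. TRAP replicate 3 these numbers were 24 and 16 of 40 (median 0.37). Sepsecs, which makes selenocysteine on its tRNA, was the one with an unadjusted p under 0.05 (2.44%, beside the 2.95% of all genes above), with 4.74, 2.16 and 0.190 FPKM at 9 a.m. and 24.3, 9.23 and 24.8 at 9 p.m. (log2 fold change 2.76 ± 1.01, SE; limma adjusted p = 0.941). In the supernatant 22 of 44 were higher and 22 lower, and 3 had an unadjusted p under 0.05 (6.82%, beside 1.79% of all genes), all higher at 9 p.m. They are Atf4, Gfm1 and Aarsd1. The 17 tested genes of the stress response as a group had 7 higher and 10 lower, with a median of -0.36. Atf4, the transcription factor of the amino acid response, read 12.6, 17.7 and 30.0 FPKM at 9 a.m. and 66.2, 39.7 and 30.8 at 9 p.m. (log2 fold change 1.15), Gfm1, a mitochondrial elongation factor, had a log2 fold change of 2.10 and Aarsd1, an alanyl-tRNA editing protein, one of 2.42, each with a limma adjusted p of 0.970.

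Between bound and unbound RNA these related genes showed no common direction. At 9 a.m. 17 of 40 were higher in TRAP and 23 lower, and none had an unadjusted p under 0.05. Without 9 a.m. TRAP replicate 3 the numbers were 19 and 24 of 43, and Atf4, lower in TRAP, had such a p. Of all 10843 genes tested there, 232 were lower with such a p. At 9 p.m. 16 of 42 were higher and 26 lower. An unadjusted p under 0.05 was reached by 1 that was higher (2.38%) and 3 that were lower, beside 3.15% and 2.53% of all genes. There Shmt2, the mitochondrial serine hydroxymethyltransferase, had a log2 fold change of 2.53, Atf4 of -1.89, Aarsd1 of -1.99 and Qrsl1, a subunit of the mitochondrial amidotransferase that makes glutaminyl-tRNA, of -2.26, each with a limma adjusted p of 0.818. In TRAP, Atf4 varied from 0 to 89.3 FPKM among the 9 a.m. libraries. Slc7a11, a cystine transporter, was lower in TRAP over both times, with a log2 fold change of -1.81 (limma adjusted p = 0.548). For the interaction, Sesn2, a leucine sensor, had a difference of -3.56, Shmt2 one of 3.54 and Mtfmt, the mitochondrial methionyl-tRNA formyltransferase, one of 3.61. All had an adjusted p of 0.988. With an unadjusted p under 0.05, 2 of 44 were positive (4.55%, where 2.64% of all genes were) and 1 was negative.

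Grouped by catalytic architecture, the synthetases were again compared between times in TRAP. Of the class I enzymes 12 of 18 tested were higher at 9 p.m. (median log2 fold change 0.44), and of the class II enzymes 12 of 15 (median 0.37). The 5 members whose TRAP groups did not overlap were all class I, or 27.8% of the 18 tested. Among the 15 class II enzymes there were 0, and among all genes tested 5.70% were higher without overlap. By unadjusted p under 0.05 both classes were represented, with 4 class I enzymes (22.2%) and 2 of class II (13.3%), Dars and Fars2. All were higher at 9 p.m., beside 2.95% of all genes. The 8 genes of the multisynthetase complex had a median of 0.23, with 5 higher and 3 lower, and the 12 cytosolic genes outside it a median of 0.71, with 11 higher and 1 lower. Without 9 a.m. TRAP replicate 3, 8 of 17 class I enzymes (median -0.0054) and 8 of 15 class II enzymes (median 0.14) were higher. So were 3 of the 8 complex genes (median -0.062) and 7 of the 12 others (median 0.38). No difference between these groupings was tested.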

How the data were processed

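The authors aligned 50 nt single-end reads to mm10 with STAR 2.4.0 and deposited FPKM per gene from Cuffquant (Cufflinks). No source used here states its version, the annotation release or the strand setting. FPKM is relative to length and mapped reads. Whole reads could not be recovered, so depth is unknown and counting intervals were not computed. Of 24354 rows, 27 names turned into dates were left out. No column was left unused and no libraries were identical.

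Groups and replicate numbers came from the labels. TRAP and supernatant libraries of one time share an animal number, though libraries of one number did not deviate together from the means of their groups (correlations -0.075 to -0.014), and the study's methods name no pairing, so fits without a block are given. The p-values measure the spread between these pools.

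Tests used limma 3.58.1 in R 4.3.3 on log2(FPKM + 1) with an intensity trend. Genes had to average more than 1 FPKM over the libraries of a comparison, and p-values were adjusted by Benjamini-Hochberg over all genes tested. Fold changes are on the log2(FPKM + 1) scale, which understates changes of low genes. A gene was called at an adjusted p below 0.05 if its log2 fold change was also larger in size than 0.4 (times, interaction) or 0.3 (fractions). The test was checked on simulated data with normal noise and large added shifts. That check does not show whether changes of the size seen here would be found. The promoter window of 1 member is not reported here. Gene models (GENCODE M21) were compared with BLAST 2.17.0, and plots drawn with matplotlib 3.10.9 in Python 3.11.15. Alternatives covered the pseudocount, filter, scaling, trend, robust variance, block, one fit of all libraries, and each library left out; counts of members by direction or by unadjusted p, and medians of all genes, under these, and counts of lists without 9 a.m. TRAP replicate 3, were chosen after seeing the data. Values per library were given for members with an unadjusted p under 0.05, or the 3 of lowest p, in each comparison, for the 2 highest and 2 lowest of each class, for Farsa, Farsb, Gars, Kars, Eprs, Mars2 and Pars2, and for partners; others, such as Iars2, Tars and Yars2, were named after their values were seen. The members and lists were chosen with earlier results of these data known.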

Additional observations from a re-analysis of the deposited data

How the results depend on the processing

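No synthetase gene was called in any of the 6 comparisons under any alternative run. The 344 refitted log2 fold changes covered only the members of lowest unadjusted p in each comparison, and none changed sign. These members were picked for low p in the same libraries that the refits reuse, so the stable signs are no independent support. The number of members higher with an unadjusted p under 0.05 in TRAP between times ranged from 1 to 6 over the alternatives. For TRAP at 9 p.m. against 9 a.m. the median log2 fold change of 0.42 became 0.68 with a pseudocount of 0.1, and ranged from 0.063 (without 9 a.m. TRAP replicate 3) to 0.83 when libraries were left out in turn. In the same way the TRAP against supernatant median ranged from -0.78 to -0.085 at 9 a.m. and from -0.053 to 0.35 at 9 p.m., and the interaction median from 0.011 to 0.80. Over all genes, the number called ranged from 0 to 5 for TRAP between times, 0 to 4 for the supernatant, 1 to 11 for the fractions at 9 a.m., 0 to 7 at 9 p.m., 6 to 14 over both times and 0 to 2 for the interaction. Causes were not tested.

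With the replicate number as a block, all genes called were 0, 1, 5, 3, 6 and 2 in the order of the comparisons above, and the members with an unadjusted p under 0.05 in TRAP between times numbered 3 in place of 6. Libraries of the 2 times share only a number (correlations -0.0066 to 0.104 in TRAP and 0.0036 to 0.065 in the supernatant, with 1 of 3 replicates closest to its own number in each), so that block has no basis in the design. The block changed no call of a synthetase gene.

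Depth is unknown, so zeros cannot be given a limit, and 3 of 16 mitochondrial genes, against 15 of 20 cytosolic genes, were above 0 in every library.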
